A study of Mus musculus with 285 samples.

Results

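The remaining hippocampal area is what was left of each imaged field once stained cells had been outlined. The hippocampal libraries carry the labels Neurones, Astrocytes and Other, and separate vessel segments occur among the cortical libraries only. The remaining area can thus hold dendrites, axons and synapses together with oligodendrocytes, microglia, vessels and unstained cells. It was compared with the NeuN-stained neuron segments of the same mice. Members were taken by their labels, namely region CA1, CA3, DG (dentate gyrus) or SO (stratum oriens) and cell type Other or Neurones. They made up 72 remaining-area and 60 neuron libraries of 285 in all. After the quality limits, 68 and 58 of these were kept and summed to 1 remaining-area and 1 neuron sum for each of 15 mice.

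The mice were female C57BL/6J animals, 9 weeks old by the series description, while the methods give an older age at irradiation. All received whole-brain electron irradiation or sham handling, and brains were taken 24 h after the last exposure. There were 3 mice in each of 5 groups: CTRL (sham), FLASH 1x10Gy and FLASH 3x10Gy (10 Gy fractions delivered in a single pulse at 5.6e6 Gy/s), and CONV 1x10Gy and CONV 3x10Gy (10 Gy fractions at 0.09 Gy/s). The 3 fractions were 48 h apart. Thin paraffin sections were stained for NeuN, GFAP and CD31, and the probe tags of a whole-transcriptome panel were released by light from each segment in turn (GeoMx digital spatial profiling). The segments were drawn on the stains, so Rbfox3 (which encodes NeuN), Gfap and Pecam1 (CD31) are no finding here.

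Most RNA of a hippocampal pyramidal or granule cell lies in the cell body, in densely packed layers. A smaller set of mRNAs is carried along microtubules into dendrites and translated near synapses, and Camk2a is the standard example. The layers between the cell bodies also hold astrocyte processes, which clear glutamate and carry lipid, and oligodendrocytes, whose myelin mRNAs such as Mbp travel out into the sheath. A segment drawn around cell bodies on a section still includes some of what lies above and beside them.

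The remaining-area libraries held more counts but mostly background. A remaining-area library had 626900 to 7377000 gene counts (median 2638000) and a neuron library had 157900 to 1994000 (median 653600). The negative probes, which match no mouse transcript and give the level of unspecific signal, had a geometric mean of 27.84 to 340.2 counts in remaining-area libraries (median 117.9) and 3.405 to 69.44 in neuron libraries (median 17.09). If every gene probe carries that level, it gives a background share of the counts of each library, which was averaged over the libraries of a mouse. This mean share was 87.28 to 96.33% in the remaining area (median 91.95%) and 41.12 to 66.22% in neuron segments (median 51.71%). The share was higher in the remaining area in 15 of 15 mice, by 38.42 percentage points (SD 6.91, n = 15 mice; two-sided exact sign-flip permutation test, p = 6.1e-05, the smallest this design allows). The limit of quantification, set at 2 standard deviations above the negative probes, was passed by 5.571 to 23.63% of panel genes in remaining-area libraries and by 8.035 to 57.76% in neuron libraries.

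The labels were checked against marker transcripts. Camk2a, the kinase subunit of excitatory neurons, passed the limit of quantification in 68 of 68 remaining-area and 58 of 58 neuron libraries, and Mbp, the myelin basic protein, in 40 of 68 and 39 of 58. Rbfox3 passed it in 9 of 68 remaining-area and 53 of 58 neuron libraries. Slc1a2, the astrocyte glutamate transporter, passed it in 65 of 68 and 44 of 58, but its probe lies in a part of the panel with high background, as described below. Gja1, the astrocyte gap junction gene, went the other way, with 0 of 68 and 8 of 58. Aqp4, the astrocyte water channel, passed it in 1 of 68 and 0 of 58. The markers Cx3cr1 and Csf1r of microglia, Flt1 and Slco1a4 of vessels and Foxj1 of ependyma did not pass the filter on low values. In such mixed segments, fewer cells of a type and less RNA per cell cannot be told apart.

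In the test across genes, the 2 sums of each mouse were compared after subtraction of each library's negative-probe level (edgeR's quasi-likelihood test with mouse as a block, Benjamini-Hochberg adjusted p below 0.05). Of 10612 genes tested, 3150 (29.7%) were called higher and 6306 (59.4%) lower in the remaining area, and the median gene differed by -1.45 on the log2 scale. The calls have to be read against the negative probes. Of 13 negative probes that passed the same filter, 12 were called higher, with a median of 2.05, and 3115 of the 3150 genes called higher lay below that median. No gene called higher exceeded the highest negative probe (2.445). When each sum was instead scaled to its own negative probes, no gene was higher (0 also at an unadjusted p under 0.05) and 10143 were lower, with a median of -0.80 over all genes. A log2 difference above 0 therefore says that a transcript lost less than most, relative to the other transcripts of its sum, and both scales are given below.

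The level of a probe also followed its place on the panel, whose probe order runs roughly by gene name. Across bins of 200 consecutive probes, the median level in the remaining area ran from 0.5962 to 2.338 times the negative probes, the highest in a bin that starts at Rpl10l, and the astrocyte libraries followed the same course. Stretches in which many probes lay far above the negative probes held 1173 of the genes tested, and 823 of these were called higher.

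**Figure D1:**
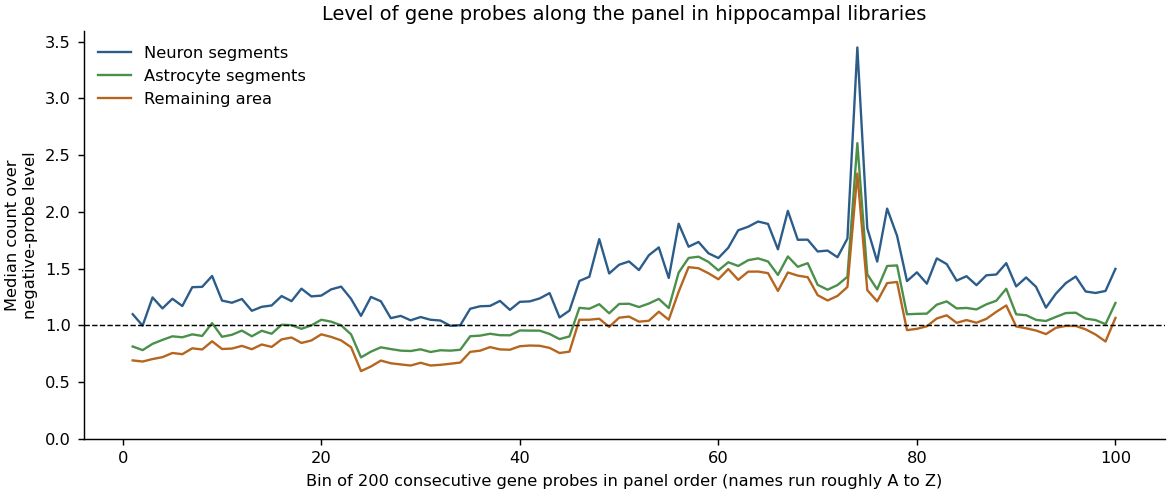
Median count over the negative-probe level (vertical axis) in successive bins of 200 gene probes in panel order (horizontal axis), for hippocampal neuron, astrocyte and remaining-area libraries; the dashed line is the negative-probe level. The curves rise and fall together, and the remaining-area curve peaks at 2.338 in the bin that starts at Rpl10l.

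The genes with the largest called differences above 0 were not markers of glia or neuropil. Olfr255, an olfactory receptor, led with a log2 difference of 2.35, followed by Slc23a1, a vitamin C transporter, with 2.13, S100a7l2 and Olfr1447 with 2.12 each, and Prph2, a photoreceptor protein, with 2.11. Slc23a1 had a median level of 15.4 times the negative probes in the remaining area and 15.1 in neuron segments, so that it stood about equally far above background in both. Psmb8, Samsn1, Slc12a1, Slc25a24, Shpk, Rp1l1, Prr32, Slc11a1, Slc13a4 and Rsph14 completed the 15 leading genes. Of 697 olfactory receptor genes tested, a list chosen after the values were seen, 671 were called higher and 9 lower, with a median of 1.54, beside 29.7% called higher over all genes.

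The largest called differences below 0 belonged to transcripts that were at 0 after subtraction in all 15 remaining-area sums. Dock9, a guanine nucleotide exchange factor, had a median level of 3.78 times the negative probes in neuron segments and 0.725 in the remaining area. The other 14 were Galnt18, Exoc6b, Cacna2d3, Dus3l, Fez1, Akap6, Dnajc8, Ccnl2, Ggt7, Fam193b, Drosha, Adar, Aifm3 and Fgfr1, and among them Drosha and Adar encode nuclear RNA enzymes. Several of the 15 lie in panel stretches with a background below the negative probes, at 0.761 for Dock9, 0.791 for Exoc6b and 0.754 for Ggt7. Against that background, Dock9, Exoc6b and Ggt7 stood at medians of 0.953, 1.07 and 1.12 in the remaining area. With the background of the stretch subtracted instead, all 15 were still called lower. Of the 6306 genes called lower, 1842 were at 0 in all 15 remaining-area sums and 5610 passed the limit of quantification in none of them. The fitted differences of genes at 0 depend on the prior count and are not given.

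To compare transcripts with each other, the level over the negative probes was corrected for the background of the panel stretch, and the signal kept was computed in each mouse as the remaining-area level in percent of the neuron level. This percent rests on the negative probes of each sum and not on the normalization between sums. It was read for 136 transcripts that stood at least 1.5 times above the background of their stretch in all 30 sums and lay outside the high-background stretches, a rule set after the values were seen. The rule leaves out every transcript that was absent from the remaining area. The median transcript kept 15.7% (quartiles 10.63 and 26.31%), and the medians over mice ran from 5.38% for Erdr1 to 102% for Rps27l. In all, 13 transcripts kept 75% or more, 9 kept 50 to 75%, 10 kept 30 to 50%, 40 kept 15 to 30%, 39 kept 10 to 15% and 25 kept less than 10%. In the test across genes, 34 of the 136 were called higher and 88 lower, beside 29.7% and 59.4% of all genes. With the background of the panel stretch subtracted, as in the percent kept, the balance turned, and 76 of the 136 were higher and 22 lower. Over all 10580 genes fitted in that setting, 1354 were higher and 7210 lower, so that 15.8% of the called genes were higher. The 136 were chosen for standing above that same background in every sum, so their balance is not comparable with that of all genes.

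**Figure D2:**
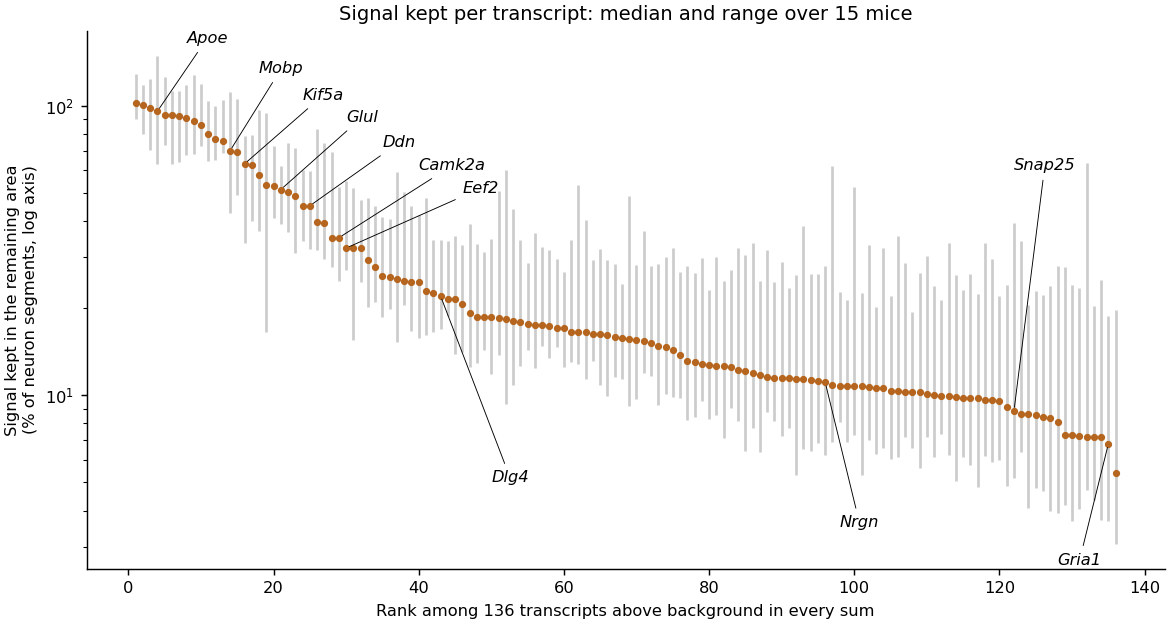
Signal kept in the remaining area, in percent of the neuron segments (log axis), for 136 transcripts ranked by their median; points are medians and bars the range over 15 mice. Apoe (95.8%) and Mobp (69.9%) lie near the top, Ddn (45.2%) and Camk2a (35%) above most transcripts, and Snap25 (8.83%) and Gria1 (6.79%) near the end.

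Among neuronal transcripts, several with known transport into dendrites kept more than the median. Camk2a, the alpha subunit of the calcium/calmodulin-dependent kinase, stood at 4.32, 8.70 and 14.6 times the negative probes in the remaining area (lowest, median and highest of 15 mice) and at 13.3, 24.5 and 36.9 in neuron segments. The ranges overlap only at their edges, and the remaining area kept 24.7 to 52.5% (median 35%). Its log2 difference was 0.45 (SE 0.168, edgeR adjusted p = 0.0183, above 0 in 11 of 15 mice) but -1.40 on the scale of the negative probes. Ddn, which encodes dendrin, a protein of dendrites and spines, stood at 3.07, 5.18 and 7.74 against 6.55, 11 and 15.5 and kept 32 to 59.7% (median 45.2%). Its log2 difference was 0.79 (SE 0.153, edgeR adjusted p = 0.000157, above 0 in 13 of 15 mice) and -1.01 on the negative-probe scale. Ddn kept more than Camk2a in 15 of 15 mice, with a median ratio of 1.27 between them (range 1.05 to 1.58).

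Other members of the list of transcripts known in dendrites differed widely in what they kept. Map2, the dendritic microtubule protein, kept a median of 32.1% (log2 difference 0.48, SE 0.148, edgeR adjusted p = 0.00558; -1.04 on the negative-probe scale), though it did not clear the level needed in every sum. The elongation factor Eef2 kept 27.0 to 54.8% (median 32.3%; log2 difference 0.33, edgeR adjusted p = 0.0371; -1.35 on the negative-probe scale). Dlg4, which encodes the scaffold PSD-95, kept 17.0 to 34.3% (median 22.1%), and its log2 difference of -0.20 did not pass the test (edgeR adjusted p = 0.197). The postsynaptic proteins Shank1, Shank3, Psd and Ppp1r9b had log2 differences of 1.09, 0.68, 1.27 and 1.16 and were called higher, and all 4 turned to between -0.58 and -0.74 on the negative-probe scale. These 4 lie in high-background stretches, and the part of their position in these values was not tested.

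Further members of the same list kept less than the median transcript. Nrgn, which encodes the calmodulin-binding protein neurogranin, was among the most abundant transcripts of the neuron segments, at 63.1, 139 and 206 times the negative probes (lowest, median and highest), and stood at 8.04, 15 and 26.1 in the remaining area. The 2 ranges do not overlap, and 6.24 to 28.1% was kept (median 11.1%; log2 difference -0.97, SE 0.118, edgeR adjusted p = 1.03e-06, below 0 in 15 of 15 mice). Calm3, a calmodulin gene, kept a median of 12.7% (log2 difference -0.96). The glutamate receptor subunit Gria1 stood at 10, 16 and 25 in neuron segments and at 1.42, 2.01 and 3.60 in the remaining area, and kept 3.67 to 18.8% (median 6.79%; log2 difference -1.85, SE 0.170, edgeR adjusted p = 3.14e-08). Gria2 and Grin1 differed by -2.29 and -2.09, the activity-regulated Arc by -2.59, Lingo1 by -1.92 and the calcium channel Itpr1 by -2.40, and all were called lower. With the background of the panel stretch subtracted, as in the percent kept, Nrgn differed by -0.017 and Calm3 by 0.055 (edgeR adjusted p = 0.837 and 0.588). Arc and Itpr1 were not called in that setting either (-0.78 and -0.91). Gria1, Gria2, Grin1 and Lingo1 stayed lower (-0.77, -1.13, -0.97 and -2.03). Homer2, Bdnf and Fmr1 were at 0 in 7, 14 and 15 of the remaining-area sums. Of the 20 members tested, 8 were called higher, 11 lower and 1 neither, with a median of -0.97, beside 29.7% higher, 59.4% lower and a median of -1.45 over all genes. On the negative-probe scale all 20 were lower.

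**Figure D3:**
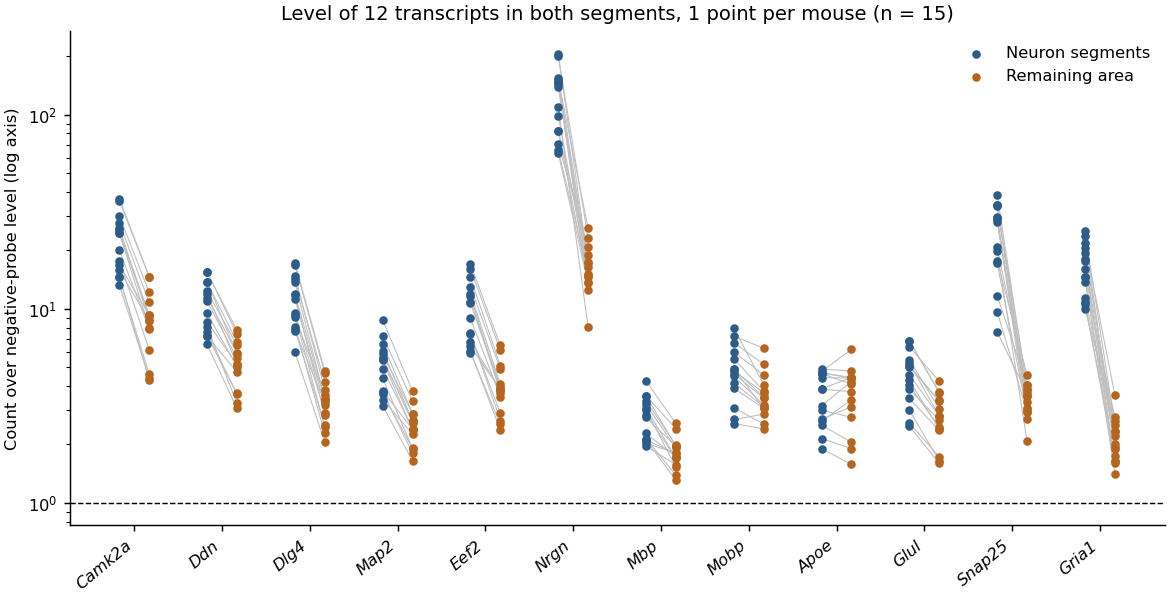
Count over the negative-probe level (log axis) of 12 transcripts in neuron segments and in the remaining area, with 1 point per mouse and segment, lines joining the segments of a mouse, and a dashed line at the negative-probe level (n = 15 mice). Apoe lies at about the same level in both segments, Camk2a and Ddn fall by less than Nrgn, Snap25 and Gria1, and the 2 ranges of Nrgn (63.1 to 206 and 8.04 to 26.1) do not overlap.

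Transcripts were also set side by side within each mouse, relatives first, as pairs picked after the values were seen and given as a description. Camk2b, the beta subunit of the same kinase, whose mRNA is known to stay mainly in the cell body, stood at 9.82, 17.3 and 22.8 times the negative probes in neuron segments and at 1.51, 2.12 and 3.33 in the remaining area. It kept a median of 7.19% (log2 difference -1.69, SE 0.175, edgeR adjusted p = 1.32e-07), and Camk2a kept more in 15 of 15 mice, by a median ratio of 4.81 (range 2.54 to 8.39). Kif5a, a kinesin motor of axonal transport, kept a median of 63.0% and its relative Kif5c 17.1%, with Kif5a ahead in 15 of 15 mice and a median ratio of 3.02. Eef2 kept more than Eef1a2, another elongation factor, in 15 of 15 mice, by a median ratio of 2.92. Among unrelated pairs, Ddn kept more than Gria1 in 15 of 15 mice, by a median ratio of 6.64, while Camk2a kept more than the presynaptic Snap25 in 13 of 15, with ratios from 0.682 to 7.04.

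Several astrocyte transcripts kept more than the median of 15.7%. Apoe, the lipid carrier made by astrocytes and microglia, stood at 1.58, 4.09 and 6.18 times the negative probes in the remaining area (lowest, median and highest) and at 1.90, 3.86 and 4.89 in neuron segments, so the 2 ranges cover each other. It kept 62.9 to 149% (median 95.8%), with a log2 difference of 1.98 (SE 0.195, edgeR adjusted p = 7.22e-08, above 0 in 15 of 15 mice) and 0.021 on the negative-probe scale. Clu, a secreted chaperone of astrocytes, kept 41.1 to 72.8% (median 52.6%; log2 difference 1.05, edgeR adjusted p = 1.94e-05; -0.57 on the negative-probe scale). Glul, the glutamine synthetase that turns glutamate into glutamine in astrocytes, kept 39.2 to 61.9% (median 51.4%; log2 difference 0.93, edgeR adjusted p = 5.55e-05; -0.71 on the negative-probe scale). Mt1, a metallothionein, kept a median of 39.8%. Outside this group, Fth1, the ferritin heavy chain that stores iron, kept a median of 45.2%. Apoe kept more than Glul, and Glul more than the presynaptic Snap25, in 15 of 15 mice.

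S100b and Slc1a2, also astrocyte transcripts, had log2 differences of 1.95 and 1.09 and were called higher, with -0.021 and -0.59 on the negative-probe scale, but both lie in high-background stretches. Ndrg2 had a log2 difference of 1.47 and -0.23 on the negative-probe scale. Gja1, the astrocyte gap junction gene, went the other way and was called lower, at a median of 0.831 times the negative probes against 1.31 in neuron segments and at 0 in 11 of 15 remaining-area sums. Of 19 astrocyte genes tested, 13 were called higher, 3 lower and 3 neither, with a median of 1.05, beside 29.7% higher and a median of -1.45 over all genes; 0 were higher on the negative-probe scale. Their summed level was 1993 to 8118 CPM (counts scaled to the subtracted sum, TMM-adjusted) in the remaining area and 1676 to 3003 CPM in neuron segments.

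Myelin transcripts were present in both segments. Mobp, a structural protein of compact myelin, stood at 2.41, 3.46 and 6.27 times the negative probes in the remaining area and at 2.56, 4.78 and 7.97 in neuron segments, and kept 42.7 to 111% (median 69.9%). Its log2 difference was 1.45 (SE 0.140, edgeR adjusted p = 5.75e-08, above 0 in 15 of 15 mice) and -0.40 on the negative-probe scale. Mbp stood lower, at 1.31, 1.80 and 2.57 against 1.96, 2.85 and 4.24, and with so little above background its signal kept ranged widely, from 14.5 to 74.0% (median 37.0%). Its log2 difference was 0.82 (SE 0.167, edgeR adjusted p = 0.000274, above 0 in 13 of 15 mice) and -0.62 on the negative-probe scale. Mobp kept more than Camk2a in 15 of 15 mice, by a median ratio of 1.91. Plekhb1, Opalin and Olig1, all expressed in oligodendrocytes, had log2 differences of 1.74, 1.5 and 1.2 and fell below 0 on the negative-probe scale (-0.14, -0.22 and -0.37). They stood at only 1.77, 1.18 and 1.14 times the background of their panel stretch in the remaining area (medians). With that background subtracted, Plekhb1 and Opalin stayed higher (2.63 and 1.70), and Olig1 was not called (0.97, edgeR adjusted p = 0.0743). The myelin and oligodendrocyte genes Cnp, Cldn11, Tspan2 and Car2 were called lower, at medians of 1.11, 1.04, 1.04 and 1.00 times the negative probes in the remaining area, that is at background, against 2.24, 1.77, 1.37 and 2.01 in neuron segments. Of 16 genes of compact myelin and oligodendrocytes, 7 were called higher, 4 lower and 5 neither, with a median of -0.028, beside 29.7% higher and 59.4% lower of all genes. All 16 were lower on the negative-probe scale.

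The remaining glial and vascular lists were short and near background. Their counts stand beside 29.7% called higher and 59.4% called lower over all genes. Of 6 microglial genes tested, 5 were called higher and 0 lower (median 1.42); Cst3, a protease inhibitor abundant in microglia, had a log2 difference of 1.32, and the receptors Siglech and P2ry12 1.91 and 1.52, all 3 below 0 on the negative-probe scale. Of 6 endothelial genes, 4 were called higher and 1 lower (median 0.60), with the tight junction gene Cldn5 at 0.72 and -0.40 on the negative-probe scale, and it passed the limit of quantification in 2 of 68 remaining-area and 17 of 58 neuron libraries. The lists of precursors of oligodendrocytes and of mural cells had 4 and 2 genes tested, of which 2 and 2 were called higher, 0 of them on the negative-probe scale. Of 4 genes of ependyma and choroid plexus 1 was called higher and 2 lower, and of 2 genes of meninges and blood 1 higher and 1 lower. The median gene of each of these lists stood under 2 times the negative probes in neuron segments. With the background of the panel stretch subtracted, P2ry12 was not called (-2.68, edgeR adjusted p = 0.107). The endothelial Pltp and the mural Rgs5, called higher on the main scale, were called lower (-4.53 and -2.89). Cst3, Cldn5 and Siglech stayed higher (2.28, 1.69 and 2.86), and Siglech lies in a high-background stretch.

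The transcripts that kept most included probes with no known role in neuropil or glia. Saa2, an acute-phase protein gene, kept a median of 100%, the olfactory receptor Olfr24 98.2%, the elongation factor homolog Elof1 93.2%, Hikeshi 92.9%, the probe for the ROSA26 locus 92.1% and the liver enzyme Cyp2d12 79.8%. The probe for mCherry/tdTomato, a fluorescent protein that these mice are not labelled as carrying, kept a median of 53.1%, at 1.88 times the negative probes in the remaining area and 2.54 in neuron segments. Elof1 stood at 11.9 and 12.4 times the negative probes (medians), so high levels occurred among these probes too. Probe background above the level of the panel stretch moves the percent kept toward 100, and its part in the values of Apoe, Mobp and the others was not tested.

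Presynaptic transcripts lay on both sides of the median of 15.7% kept. Snap25, a protein of the release machinery, stood at 7.60, 27.9 and 38.6 times the negative probes in neuron segments and at 2.08, 3.55 and 4.58 in the remaining area. It kept 5.17 to 39.5% (median 8.83%; log2 difference -1.18, SE 0.153, edgeR adjusted p = 2.14e-06, below 0 in 14 of 15 mice). Syp, a vesicle membrane protein, kept a median of 9.67% and Vamp2, another release protein, 15.4%, close to the median transcript. The complexins Cplx1 and Cplx2, which act at the release machinery, kept 18.5 and 18%, and the active zone scaffold Bsn 16.1%. With the background of the panel stretch subtracted, Snap25 differed by -0.27 and Syp by -0.19 (edgeR adjusted p = 0.0667 and 0.113). Vamp2, Cplx1, Cplx2 and Bsn were called higher in that setting (0.46, 0.71, 0.59 and 0.40). Of 26 genes of synaptic vesicles and release tested, 0 were called higher and 23 lower, beside 59.4% of all genes, but their median of -0.91 lay above that of all genes (-1.45). Of 20 glutamate and GABA-A receptor genes all 20 were called lower (median -4.01). The median gene of this list stood at 1.05 times the negative probes in the remaining area, near background, and at 3.36 in neuron segments. The size of -4.01 therefore depends on the background level subtracted. With the genes at 0 in every remaining-area sum set to a floor of 3 counts over the 15 sums, the median of these receptor genes was -4.01 and that of all genes -1.45. Among general neuron markers, 1 was called higher and 14 lower of 15, and among nuclear and cell body markers 1 was called higher and 15 lower of 17. Rbfox3, the gene of the stain that drew the neuron segments, had a log2 difference of -1.31.

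Transcripts of particular neuron types were counted beside the 29.7% of all genes called higher and 59.4% called lower. Of 10 dentate granule cell genes tested, 9 were called lower and 0 higher, of 8 CA3 pyramidal genes 8 and 0, of 8 CA1 pyramidal genes 6 and 2 and of 9 interneuron genes 6 and 1, so the latter 2 lists lay near the shares of all genes. The interneuron enzymes Gad1 and Gad2, which make GABA, were at 0 in 13 and 15 of the 15 remaining-area sums. All 8 immediate early genes tested, which neuronal activity induces, were called lower. Of 9 targets of p53, the transcription factor that DNA damage activates, 2 were called higher and 5 lower, also near the shares of all genes. The 2 higher calls were Phlda3 (1.98, and 0.012 on the negative-probe scale) and Sesn2 (1.17, and -0.26), and Sesn2 lies in a high-background stretch.

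Genes of energy metabolism and protein synthesis differed in their calls on the main scale only. Of 78 nuclear genes of oxidative phosphorylation, 10 were called higher, 57 lower and 11 neither, with a median of -0.95, above the -1.45 of all genes, of which 59.4% were called lower. Of 78 cytosolic ribosomal protein genes, 51 were called higher, 11 lower and 16 neither (median 0.46), but 68 of them lie in high-background stretches. On the negative-probe scale 78 of 78 oxidative phosphorylation and 77 of 78 ribosomal genes were lower. The genes of the mitochondrial genome have no probe on the panel.

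**Figure D4:**
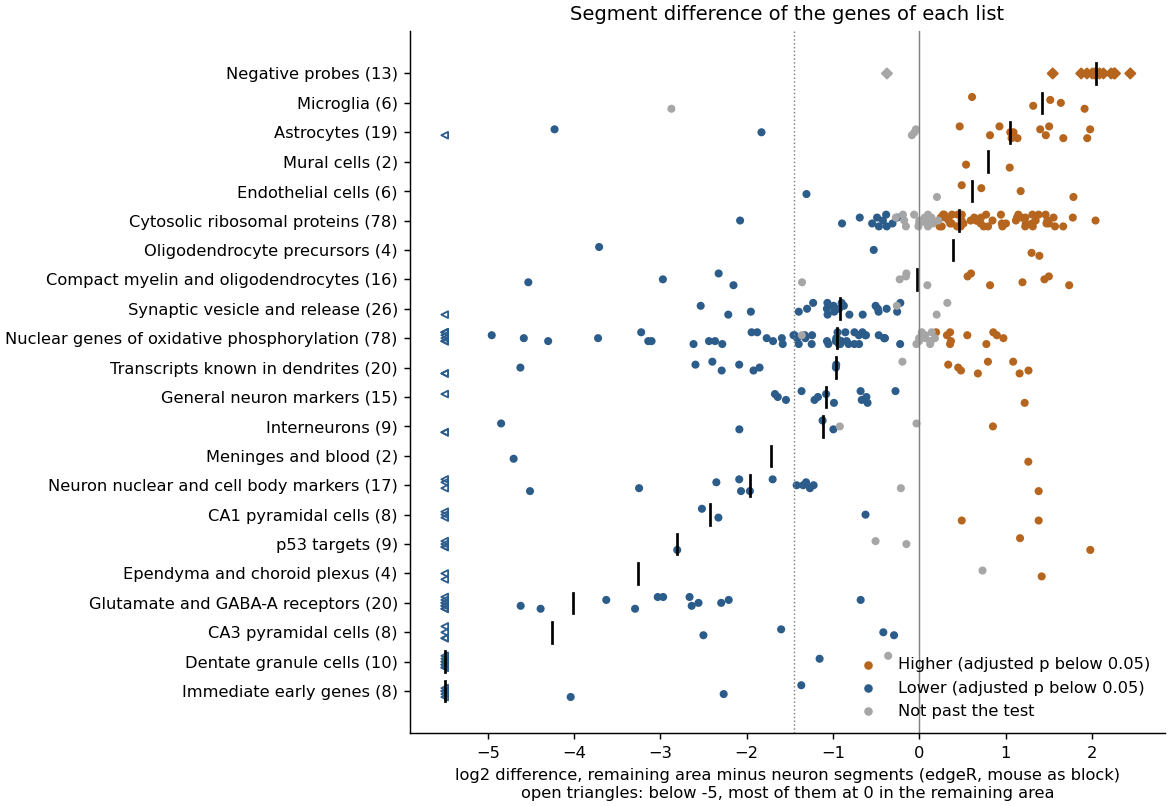
log2 difference between the remaining area and neuron segments (horizontal axis; edgeR, mouse as block) for the genes of each list and the 13 negative probes, colored by the call; black bars are list medians, the dotted line the median of all genes (-1.45), and open triangles genes below -5. The negative probes lie farthest to the right (median 2.05), with microglial (1.42) and astrocyte (1.05) genes above 0. Receptor genes (-4.01) lie to the left and were near background in the remaining area.

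The segments were then compared within each region. In CA1 (15 mice), 2361 genes were called higher (22.2%) and 6184 lower (58.3%). In CA3 (15 mice), 2349 were higher (22.1%) and 6414 lower (60.5%) of 10608. In DG (14 mice), 2885 were higher (27.2%) and 5517 lower (52%), and in SO (12 mice), 2267 were higher (21.4%) and 5627 lower (53%). In each region 12 of 13 negative probes were called higher, with medians of 1.86, 1.41, 2.29 and 2.03, so that the zero of the scale moved between regions. DG lacks 1 mouse and SO lacks 3, in which 1 of the segments failed the limits or was not taken.

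The difference between segments itself differed between regions for 2480 genes (23.4%; limma moderated F-test on paired log2(CPM + 10) differences with mouse as a block, adjusted p below 0.05). Among these, DG was the highest region for 1188 genes and CA3 for 901, and CA1 was the lowest for 1145. Of the 136 transcripts read for signal kept, 91 were called. The genes with the smallest p were Cpe, Doc2b, Grik4, Dock9, Mobp, Cadps, Eno1, Gm51592, Srrm2 and Ociad2. Cpe, which encodes the prohormone processing enzyme carboxypeptidase E, had means of -1.12 in CA1, -1.24 in CA3, 1.3 in DG and -0.68 in SO (limma adjusted p = 6.78e-12). Grik4, Doc2b and Dock9 were at 0 in 14, 13 and 15 of the 15 remaining-area sums, so their differences between regions follow from the level in neuron segments and the pseudocount of 10 CPM and are not read as differences of the remaining area.

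The myelin transcripts Mobp and Mbp differed between regions, with the highest mean differences in SO but the highest median levels of the remaining area in CA3. Mobp had mean differences of 0.02 in CA1 (SD 0.537), 0.99 in CA3 (SD 0.642), 1.17 in DG (SD 0.590) and 2.18 in SO (SD 0.921; limma adjusted p = 6.86e-09). Its median level over the negative probes in the remaining area was 1.78 in CA1, 4.77 in CA3, 2.72 in DG and 3.90 in SO, against 3.09, 6.32, 4.30 and 3.08 in neuron segments. It kept a median of 26.3, 80.8, 55.6 and 143% in that order. The ranges over mice were 3.05 to 41.6%, 39.5 to 107%, 29.7 to 130% and 71 to 1170%. The range is wide in SO, where the neuron level came down to 1.43 times the negative probes. Stratum oriens, which borders the fiber tract of the alveus, was thus the only one of the 4 regions in which the median of Mobp was higher in the remaining area than in neuron segments. Mbp had mean differences of -0.62, 1.06, 0.18 and 1.35 (limma adjusted p = 0.00014), with remaining-area medians of 1.14, 2.03, 1.82 and 1.78, close to background in CA1. It kept medians of 3.34, 64.4, 22.8 and 58.8%. The ranges over mice were -124 to 61%, 40.6 to 202%, 4.51 to 216% and -5700 to 704%, so these medians do not order the regions.

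The astrocyte transcripts Clu, Glul and Apoe had their highest means in DG, where the negative probes were highest too. Clu had mean differences of 0.48 in CA1, 0.31 in CA3, 1.66 in DG and 0.27 in SO (limma adjusted p = 3.36e-05) and kept medians of 46.6, 38.7, 84.7 and 38.9%. Its ranges over mice were 24.4 to 65.3%, 27.5 to 3780%, 58.8 to 154% and 17 to 67.9%. Glul had 0.37, 0.22, 1.29 and 0.39 (limma adjusted p = 1.09e-05) and kept medians of 41, 46.1, 70 and 49% (ranges 18.1 to 81.8%, 33.8 to 64.5%, 50.7 to 95.2% and 32.8 to 65.4%). Apoe had 1.29, 1.64, 2.15 and 1.44, which did not pass the test (limma adjusted p = 0.0721). With a neuron library as the reference of the normalization, the adjusted p of Apoe was 0.0036 and 3042 genes were called, a setting added after the values were seen. Apoe kept medians of 70.6, 102, 117 and 85% in CA1, CA3, DG and SO. The ranges over mice were 41.8 to 1410%, 77 to 413%, 72.1 to 252% and 9.62 to 2080%, so these medians do not order the regions.

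Neuronal transcripts differed between regions in their own order. Camk2a had mean differences of -0.15 in CA1, 0.11 in CA3, 0.59 in DG and -0.28 in SO (limma adjusted p = 0.00212). Its median level in the remaining area was 5.69, 7.49, 13.2 and 5.90 times the negative probes against 18.8, 20.5, 30.2 and 18.7 in neuron segments, and it kept 27.3, 37.3, 40.9 and 28.1%. Ddn was lowest in CA3, with mean differences of 0.70, 0.10, 0.69 and 0.53 (limma adjusted p = 0.0117) and 46.3, 36.7, 42.3 and 44.4% kept. Snap25 had -2.12, -1.61, -0.99 and -1.35 (limma adjusted p = 0.00101) and kept 5.84, 10.2, 12.6 and 13.1%. These percentages are medians, and their ranges over mice overlapped between regions for Camk2a, Ddn and Snap25. Dlg4 and Eef2 did not pass the test between regions (limma adjusted p = 0.19 and 0.232).

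**Figure D5:**
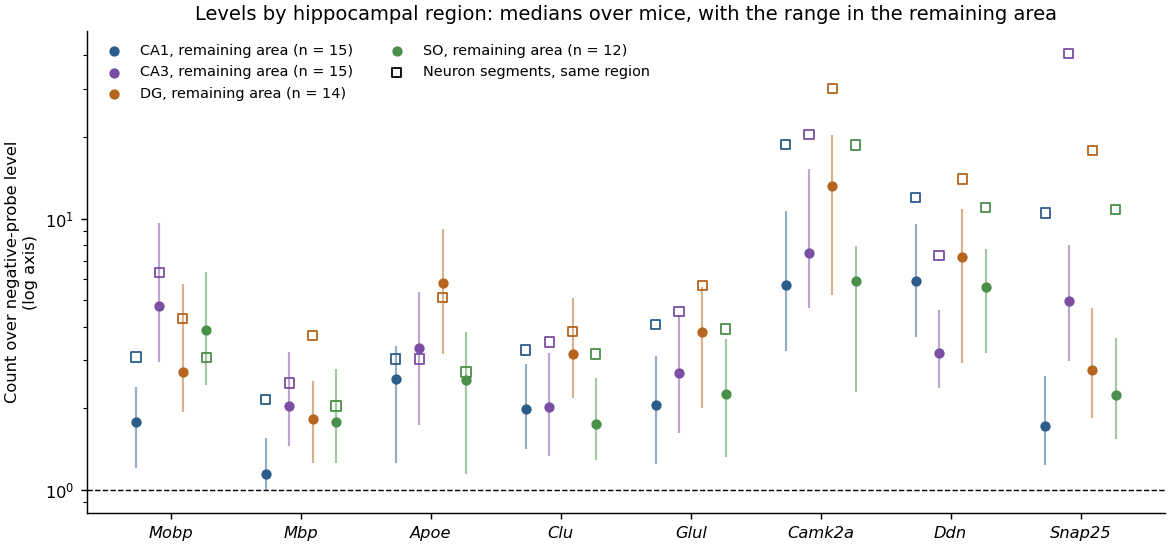
Count over the negative-probe level (log axis) of 8 transcripts by region, as medians over mice; filled points are the remaining area with its range, open squares the neuron segments of the same region, and the dashed line the negative-probe level. The remaining-area median of Mobp (3.90) lies above the neuron median (3.08) in SO alone of the 4 regions, and Snap25 lies far below its neuron median in all 4.

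Irradiation was asked about last. The difference between segments differed between the 5 treatment groups for no gene (0%, edgeR quasi-likelihood F-test, 15 mice, smallest adjusted p 1). At an unadjusted p under 0.05 there were 207 genes. The test was of the segment by treatment terms, with mouse as a block and no term for slide. The mean of the irradiated groups against CTRL gave no gene either (0%; 322 at an unadjusted p under 0.05, smallest adjusted p 1). The counts of 207 and 322 are each a smaller share of the 10612 genes tested than the 0.05 of the threshold. Groups of 3 mice bound what could be detected. The percent of Camk2a signal kept was 28, 30.9 and 35 in the CTRL mice, 29.6, 30.7 and 38.4 after FLASH 1x10Gy, 34.2, 36.4 and 36.7 after FLASH 3x10Gy, 24.7, 26.9 and 39.2 after CONV 1x10Gy and 38, 52.3 and 52.5 after CONV 3x10Gy. The CONV 3x10Gy mice lay above the CTRL mice, while the other groups overlapped them or each other. Apoe kept 78.3, 87.1 and 97.2% in CTRL mice and 126, 139 and 148% after CONV 3x10Gy, with 62.9, 68.4 and 93.2% after CONV 1x10Gy, 99.4, 120 and 149% after FLASH 1x10Gy and 84.7, 92.4 and 95.8% after FLASH 3x10Gy. For other transcripts the CONV 3x10Gy and CTRL mice overlapped. Ddn kept 46.8 to 59.7% against 37.1 to 47.5%, and Glul 48.6 to 61.6% against 51.4 to 59.4%. Mobp kept 61.2 to 84.1% against 42.7 to 111%, and Snap25 7.38 to 20.9% against 5.63 to 21.4%. The paired log2(CPM + 10) difference of Camk2a was -0.011 ± 0.741 (SD, n = 3) in CTRL and 0.81 ± 0.649 after CONV 3x10Gy. That of Apoe was 1.43 ± 0.736 and 2.28 ± 0.94. These values are a description, since the test was run on the subtracted sums, and neither gene was called (edgeR F-test adjusted p = 1 for both).

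The same 2 segments were compared in the cortex of the 15 mice. The segment difference was higher in hippocampus than in cortex for 172 genes (1.62%) and lower for 322 (3.03%; limma on paired log2(CPM + 10) differences). Olfm2, a secreted olfactomedin protein, had the smallest p of the first set, with a difference of 1.39 in hippocampus and 0.17 in cortex (difference 1.23, SD 0.29, limma adjusted p = 2.94e-05, in 15 of 15 mice). Pcdh7, a protocadherin, Scube1 and Resp18 followed with 0.94, 1.02 and 0.97. Itga7, an integrin subunit, had -3.59 in hippocampus and -0.94 in cortex (difference -2.66, SD 0.784, limma adjusted p = 5.6e-07, in 15 of 15 mice), followed by Dock10, Fibcd1, Fgfr1 and Doc2b. These 5 genes were at 0 in 12, 14, 12, 15 and 13 of the 15 hippocampal remaining-area sums, and Bdnf in 14, so the sizes of their differences are set by the pseudocount and the neuron level. Of the dendritic list, Shank3 differed by 0.68 (limma adjusted p = 0.00229), Bdnf by -1.62 (0.000428) and Itpr1 by -0.82 (0.0174). For Camk2a the difference was -0.07 (limma adjusted p = 0.735), for Map2 0.02 (0.95), for Ddn 0.30 (0.142), for Mobp 0.45 (0.118) and for Apoe 0.10 (0.688), and none of these 5 passed the test.

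The remaining area was last set against the GFAP-stained astrocyte segments of the hippocampus, which lie in the same layers and had 66.5 to 89.47% background. This could be done in 10 mice with 30 astrocyte libraries. Of 4965 genes tested, 562 were higher (11.3%) and 610 lower (12.3%) in the remaining area, and 1 of 11 negative probes was called, so this comparison was less tied to background. The called genes with the smallest p on the higher side were neuronal. Cplx1, a complexin of the release machinery, differed by 1.03 (SE 0.102, edgeR adjusted p = 5.17e-07), Camk2a by 0.92 (edgeR adjusted p = 8.72e-07), the active zone scaffold Bsn by 0.95 and the AMPA receptor partner Cnih2 by 0.93. Ddn, Nrgn and Snap25 differed by 0.84, 0.82 and 0.91 and were called too, although they had kept very different percentages of the neuron signal.

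Astrocyte transcripts were lower in the remaining area than in the astrocyte segments. Apoe differed by -2.01 (edgeR adjusted p = 9.03e-10), at 3.57 times the negative probes against 13.3, Clu by -2.11 and Glul by -1.29. Gja1, the astrocyte gap junction protein, stood at a median of 0.803 times the negative probes against 2.22 and was at a median of 0 after subtraction in the remaining area. Myelin transcripts were lower as well, Mobp by -1.2 (edgeR adjusted p = 2.84e-05), at 3.33 against 8.69, and Mbp by -1.06 (edgeR adjusted p = 1.98e-06), at 1.76 against 3.16. The remaining area thus lay between the other 2 segments for Camk2a, at a median of 8.34 times the negative probes in these 10 mice against 6.29 in astrocyte segments.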

How the data were processed

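Whole-transcriptome GeoMx libraries of hippocampal segments from 15 mice were used. The authors deposited counts per probe and library, made from sequencing reads with the GeoMx NGS pipeline 2.0.0 (per the file headers, aligned and deduplicated), and their processing notes also name R 4.4.0 and edgeR. Of the probes, 19965 target 19962 genes and 209 are negative controls; counts of an unlisted probe (0.00869%) were dropped. A library was used when it had at least 1000 raw reads, with 80% of reads left after trimming, 80% after stitching and 75% after alignment, a saturation of 50%, a negative-probe geometric mean of 1 and 5% of panel genes detected; 225 of 285 passed. The libraries left out of the segments compared included both DG remaining areas of CONV 1x10Gy mouse B. Mice of slide 5 have 2 remaining areas a region. No pair of libraries was a duplicate (highest correlation 0.974).

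The geometric mean of the negative probes (a 0 taken as 0.5) was subtracted in each library, libraries were summed per mouse and segment, and values below 0 were set to 0. Negative probes were kept out of library sizes and of TMM scaling. Sums were tested with edgeR 4.0.16 (quasi-likelihood, robust) with mouse as a block, since both segments come from the same animal, in R 4.3.3. Treatments were tested on the same sums in edgeR by segment by treatment terms, without a term for slide. Differences between regions and against cortex were tested with limma 3.58.1 on paired differences of log2(CPM + 10). The steps were tested on simulated data. The single value of background share was tested by an exact sign-flip permutation.

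Named genes were Mbp and Camk2a, the 15 largest called differences in each direction (at least 50 CPM, same direction in all 15 mice), every tested member of the dendritic list, up to 4 called genes of each other list and the 5 called genes with the smallest p in each further test; others named in the text were chosen after their values were seen, and a few genes that the rule names are not reported here. The members and the gene lists were chosen with earlier results of these data known. The background of a panel stretch is the running median over 201 probes of the count over the negative level in astrocyte libraries, and a high-background stretch has over 5% of its probes above 3 times the negative level. The alternatives covered background, normalization, filters, tool (DESeq2 1.42.0, voom), libraries, regions, mice and treatments; 7 of them, and the percent of signal kept, were chosen after seeing the data.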

Additional observations from a re-analysis of the deposited data

Results flagged for a closer look

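The difference between remaining area and neuron segments differed between groups of the same contrast in these cases. Between regions it differed for 2480 genes (limma F-test, mouse as a block). The gap between the highest and the lowest region mean was 2.54 (log2) for Cpe, 3.84 for Doc2b, 3.23 for Grik4, 1.41 for Dock9, 2.16 for Mobp, 2.91 for Cadps, 2.90 for Eno1, 2.46 for Gm51592, 2.6 for Srrm2 and 2.06 for Ociad2. Among the other transcripts described, it was 0.87 for Camk2a, 1.39 for Clu, 0.60 for Ddn, 1.07 for Glul, 1.97 for Mbp and 1.12 for Snap25. The negative probes moved by region as well, from 1.41 in CA3 to 2.29 in DG, and their part in these gaps was not tested. Grik4, Doc2b and Dock9 were at 0 in 14, 13 and 15 of the 15 remaining-area sums, so the size of their gaps is set by the pseudocount and the level in neuron segments.

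Between hippocampus and cortex the segment difference was higher in hippocampus for 172 genes and lower for 322. It was higher for Olfm2 (1.23), Pcdh7 (0.94), Scube1 (1.02), Resp18 (0.97) and Shank3 (0.68). It was lower for Itga7 (-2.66), Dock10 (-2.40), Fibcd1 (-2.57), Fgfr1 (-2.68), Doc2b (-2.51), Bdnf (-1.62) and Itpr1 (-0.82). Neuron segments of the 2 areas hold different cell types, and a difference in either segment gives such a value. Itga7, Dock10, Fibcd1, Fgfr1, Doc2b and Bdnf were at 0 in 12 to 15 of the 15 hippocampal remaining-area sums, so the size of their values is set by the pseudocount and the neuron level.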

How the results depend on the processing

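The order of transcripts was read from signal kept, since the sign of moderate differences changed with the scale. The median of all genes was -1.45 in the main setting, 0.0045 without subtraction and -0.80 scaled to the negative probes, and the share of called genes that were higher was 33.3% against 50.6% without subtraction, 22.7% with DESeq2, 22.5% with its size factors, 51.8% under the strict filter and 17.3% without a filter. Genes higher numbered 1194 under the strict filter, 1986 in CTRL mice, 0 scaled to the negative probes, 1354 with the stretch background subtracted, 1031 with the limit of quantification subtracted, 777 with genes required above that limit in each segment and 51 among the 136 transcripts read for signal kept, fitted alone. Genes lower numbered 13951 without a filter, 1113 under the strict filter, 1664 in CTRL mice, 10143 scaled to the negative probes, 650 above the limit in each segment and 67 among those 136. Leaving out each mouse gave 3006 to 3153 higher and 6221 to 6503 lower. Without subtraction, CA1 gave 4199 higher and 3687 lower, CA3 4215 and 4051, DG 4390 higher, and SO 3605 and 3372; without each mouse, CA1 gave 2014 to 2440 and 6081 to 6336, CA3 2276 to 2635 and 6088 to 6406, DG 2705 to 2878 and 5326 to 5585, and SO 1895 to 2256 and 5497 to 5741. The cortex test called 1098 genes with a pseudocount of 50 and 1631 without subtraction, against 494. The replicate block was in the main design; with no replicate block, 3205 genes were higher and 6164 lower, 2146 differed by region, and 804 differed from astrocyte segments against 1172 with it. The causes were not tested.

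Signs turned below 0 in these settings. Scaled to the negative probes: Mbp -0.62, Camk2a -1.40, Map2 -1.04, Ddn -1.01, Shank1 -0.62, Shank3 -0.74, Psd -0.58, Ppp1r9b -0.71, Eef2 -1.35, Mobp -0.40, Plekhb1 -0.14, Glul -0.71, Clu -0.57, Slc1a2 -0.59, S100b -0.021, Kif5a -0.54 and Nefh -0.35. Above the limit in each segment: Mbp -0.31, Camk2a -0.67, Map2 -0.64, Ddn -0.32, Shank1 -0.033, Shank3 -0.45, Eef2 -0.78, Glul -0.18, Clu -0.052 and Slc1a2 -0.033. Without subtraction: Camk2a -0.58, Map2 -0.22, Ddn -0.18 and Eef2 -0.53. With DESeq2: Camk2a -0.26, Map2 -0.22, Shank3 -0.030 and Eef2 -0.37. With its size factors in edgeR: Camk2a -0.26, Map2 -0.22, Shank3 -0.023 and Eef2 -0.37. Under the strict filter: Camk2a -0.34, Map2 -0.31, Shank3 -0.11 and Eef2 -0.45. In CTRL mice: Camk2a -0.0079, Map2 -0.035 and Eef2 -0.19. With the limit subtracted: Map2 -0.39, Shank3 -0.58 and Eef2 -0.24. Without a filter: Eef2 -0.015. Signs turned above 0 with the stretch background subtracted, Dlg4 to 0.78 and Calm3 to 0.055, and Dlg4 stood at 0.32 among the 136. Of the other values of named genes, 1037 planned and 114 added ones kept their side of the threshold and, where called, their direction. A further 39 planned and 19 added values kept direction but were no longer called. Another 10 planned and 3 added values kept direction and were called only in the alternative setting.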
